A study of Mus musculus with 9 samples.

Results

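The miR-34 and miR-449 family of miRNAs was read by 7 of the 566 mouse miRNA probes on a NanoString nCounter panel. These were all the probes whose name, without its arm suffix, is miR-34a, miR-34b, miR-34c, miR-449a, miR-449b or miR-449c, and miR-34b was read on both of its arms. The panel was run on total RNA of whole lungs from mouse embryos at E18.5, shortly before birth. Of the 9 lungs, 4 were Bim3'UTRmut/mut, homozygous for a mutated 3′ untranslated region of Bim (mutant 6 to mutant 9), and 5 were wild type (wild type 1 to wild type 5). Both groups were C57BL/6, and no treatment, transgene or further allele is given for either. Bim (Bcl2l11) is a pro-apoptotic protein. A miRNA panel does not read its mRNA, so the allele could not be checked in these counts. The labels do not say whether lungs shared a litter or were pooled, so each p-value reflects only how far these 9 samples vary, which may be technical.

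Members of the family share a seed, the bases that pair with target mRNAs, and so are held to act on overlapping targets. Mir34a is a direct transcriptional target of p53 and is found in many cell types, and Mir34b and Mir34c share a primary transcript that p53 also induces. The Mir449 genes lie in an intron of Cdc20b, beside Mcidas and Ccno, which drive the formation of multiciliated cells. In the airway, miR-34b, miR-34c and miR-449 are abundant in multiciliated cells, and mice that lack both clusters and Mir34a have defects of motile cilia.

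The mature sequences are shown because members of 1 seed family gave signals from far above background to none. They are from RefSeq on GRCm38.p6, which matched 5 of the 7 probes when a probe name without an arm was taken as the 5′ arm. miR-34c and miR-449b were not matched and are named only. Each sequence is written 5′ to 3′, and the capitals mark the seed, bases 2 to 8.
miR-449a-5p: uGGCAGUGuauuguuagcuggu
miR-449c-5p: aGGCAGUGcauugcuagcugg
miR-34a-5p: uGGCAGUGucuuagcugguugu
miR-34b-5p: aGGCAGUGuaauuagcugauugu
miR-34b-3p: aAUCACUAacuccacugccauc

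The seed GGCAGUG was carried by 4 of the 1679 mature mouse miRNA names in that table, and these were the 4 matched 5′ arms of the family. miR-34b-3p, the opposite arm of the Mir34b hairpin, has the seed AUCACUA and is a member by its hairpin, not by its seed. miR-449a-5p and miR-449c-5p carried the same base at 18 of 21 positions counted from the 5′ end. miR-34a-5p matched miR-449a-5p at 15 of 22 positions and miR-34b-5p at 11 of 22. miR-34a-5p and miR-449a-5p also shared a run of 9 bases in their 3′ part, starting at base 11 of miR-34a-5p and at base 14 of miR-449a-5p. How far each probe reads its near relatives was not analysed here.

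The family lies at 3 loci. The mature miR-34a-5p is at chr4:150068473-150068494 on the plus strand, and no annotated gene other than Mir34a spans it. miR-34b-5p at chr9:51103610-51103632 and miR-34b-3p at chr9:51103574-51103595 are on the minus strand, inside the spans of Hoatz and Btg4, as is Mir34c. miR-449c-5p at chr13:113036008-113036028 and miR-449a-5p at chr13:113037549-113037570 are on the plus strand inside Cdc20b, and so is Mir449b.

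Lane background and a pair of unusual samples touch the values that follow. The summed mouse miRNA count ran from 206964 to 289227, and the 8 negative control probes averaged 28.1 to 79.1 counts per lane. A probe was called above background where its count exceeded a lane threshold, set 2 SD over the negative control mean of its own lane. This background fell into a higher range of 64.3 to 79.1 counts in 4 of the 12 lanes run and a lower range of 28.1 to 44.9 in 8 lanes. Mutant 6, wild type 2 and wild type 5 were read here from higher-background lanes. Mutant 8 and wild type 3 stood apart from the other 7 samples. The summed counts of 7 heart and skeletal muscle miRNA probes were 30047 in mutant 8 and 22869 in wild type 3, against 378 to 636 elsewhere. The summed counts of 8 epithelial miRNA probes, markers that a lung should hold, were 2374 in mutant 8 and 734 in wild type 3, against 7546 to 9728 elsewhere. The genotype comparisons of the tested members and of the lists are given with and without these libraries. In the lane table, sample 5, labelled wild type, carries a comment that reads as mutant. The sample label was followed, and fold changes and differences with sample 5 as mutant stand in the closing section.

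miR-449a (probe mmu-miR-449a) was the one member with a signal far above background. Its count was 804 in mutant 6, 1307 in mutant 7, 70 in mutant 8 and 788 in mutant 9. In the wild type lungs it was 1189, 812, 58, 869 and 926 for samples 1 to 5. In 7 of the 9 lungs the count was thus high and of similar size in both genotypes, while mutant 8 and wild type 3 read more than 10 times less. Relative to the threshold of its lane, the count was 5.29 times in mutant 6, 19.9 times in mutant 7, 1.08 times in mutant 8 and 9.79 times in mutant 9. For the wild type lungs these ratios were 21.1, 5.54, 0.845, 15.4 and 4.69. miR-449a was therefore above background in 8 of 9 samples, and mutant 8 cleared its threshold of 65.1 counts by less than counting error, its exact Poisson 95% interval being 54.6 to 88.4 counts. The interval in wild type 3, 44.0 to 75.0 counts, likewise held the threshold of 68.6 counts. Such intervals cover counting error only.

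**Figure D1:**
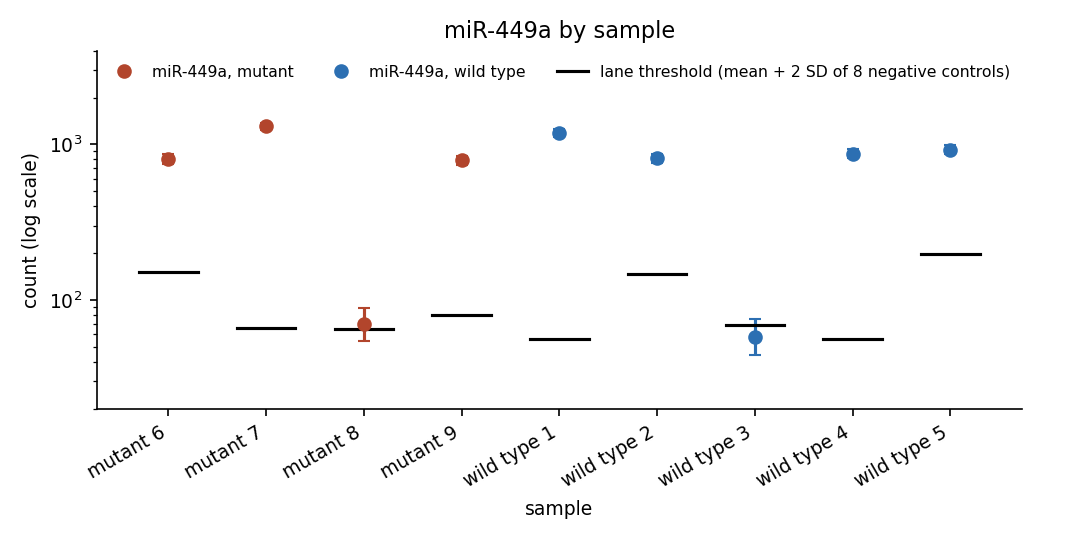
Count of miR-449a (log axis) in each of the 4 mutant and 5 wild type lungs, with exact Poisson 95% intervals as error bars and the background threshold of the lane as a black line. The other 7 points sit between 788 and 1307 counts, and mutant 8 (70) and wild type 3 (58) sit at their thresholds.

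Among all 566 mouse miRNA probes, miR-449a ranked 39 to 46 by count in the 7 other lungs, 221 in mutant 8 and 238 in wild type 3. It took 0.313% to 0.499% of the counts of the tested probes in those 7 lungs, 0.0309% in mutant 8 and 0.0312% in wild type 3. Probes differ in how well they bind and ligate, so a rank orders counts and not molecules. After subtraction of the mean negative control, 35.4 counts were left in mutant 8 and 20.5 in wild type 3. These were 4.80% and 2.78% of the lowest excess among the other lungs.

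miR-34a (probe mmu-miR-34a), the p53 target, read close to background throughout. Its count was 152, 94, 79 and 89 in mutant 6 to mutant 9, and 103, 119, 72, 63 and 127 in wild type 1 to wild type 5. The count was 1.00, 1.43, 1.21 and 1.11 times the lane threshold in the mutant lungs and 1.83, 0.812, 1.05, 1.12 and 0.643 times in the wild type lungs. It was above background in 7 of 9 samples, all 4 mutant and 3 wild type. Only in mutant 7 and wild type 1 did the exact Poisson 95% interval lie above the threshold. These intervals were 76.0 to 115.0 against 65.7 counts and 84.1 to 124.9 against 56.3 counts. In the other passing samples the interval held the threshold. The 2 samples below were wild type 2 and wild type 5, both read from higher-background lanes. Over all 12 lanes, miR-34a passed in 8 of 8 lower-background lanes and in 1 of 4 higher-background lanes, although its counts were 63 to 103 in the lower-background lanes and 119 to 152 in the higher-background ones. In mutant 8 (79) and wild type 3 (72) the count of miR-34a lay toward the low end of the other lungs, which read 63 to 152. With the negative mean subtracted, 44.4 counts of miR-34a were left in mutant 8 and 34.5 in wild type 3. The other lungs kept 31.5 to 85.3 counts, so no fall like that of miR-449a was read. So close to background, a small fall could be missed.

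Both arms of miR-34b sat at the threshold. miR-34b-3p read 130, 87, 76 and 67 counts in mutant 6 to mutant 9, and 78, 116, 56, 52 and 128 in wild type 1 to wild type 5. It passed in mutant 7, mutant 8 and wild type 1, and in no higher-background lane. miR-34b-5p, the arm with the family seed, read 95, 59, 59 and 61 counts in the mutant lungs and 62, 103, 61, 52 and 115 in the wild type lungs. It passed only in wild type 1, at 1.10 times the threshold. Neither arm met the requirement for testing, a count above the lane threshold in at least 4 of 9 samples.

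miR-449c and miR-449b, which share the Cdc20b intron with miR-449a, were above background in no sample. miR-449c read 25, 21, 15 and 13 counts in mutant 6 to mutant 9, and 22, 34, 14, 16 and 23 in wild type 1 to wild type 5. miR-449b read 8, 11, 16 and 10 counts in the mutant lungs and 9, 12, 19, 10 and 14 in the wild type lungs. In all 12 lanes miR-449b lay below each of the 8 negative controls, so its counts set no level. Its highest count among the 9 samples was 19, in wild type 3, with an exact Poisson 95% interval of 11.4 to 29.7 counts.

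miR-34c read exactly 1 count in all 12 lanes. Of the 566 mouse miRNA probes, only miR-155 did the same. The lowest count of any negative control in any lane was 10, and of the 564 remaining mouse miRNA probes 1 had a count under 3 in any lane. A fixed value of 1 under a background of 10 or more carries no information on the level of miR-34c, and none is given here.

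**Figure D2:**
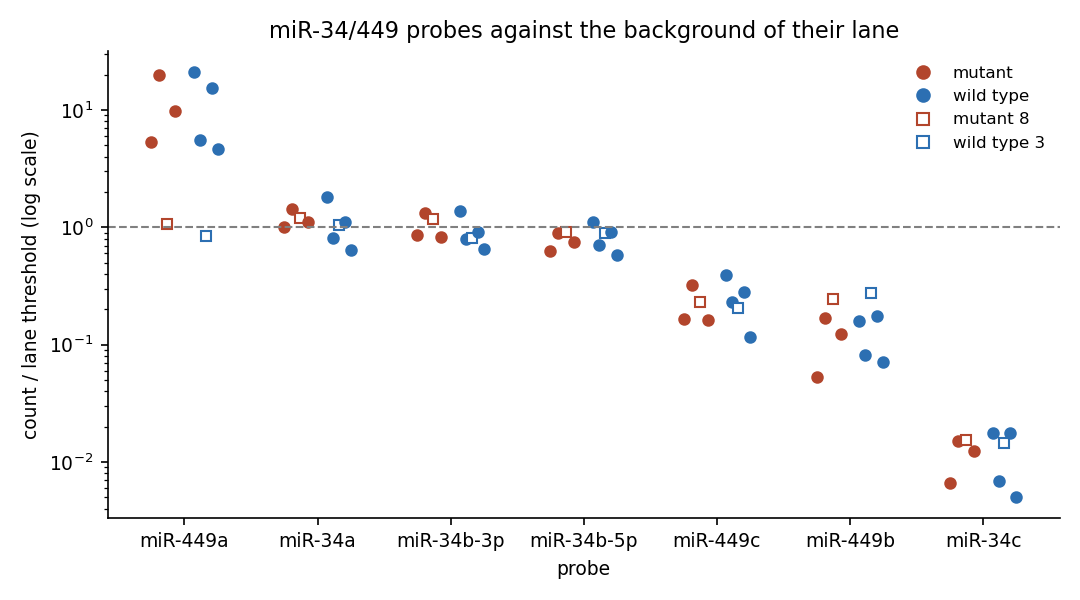
Count of each of the 7 probes divided by the background threshold of its lane (log axis), in mutant lungs (red, left within each probe) and wild type lungs (blue, right), with mutant 8 and wild type 3 as open squares. The dashed line marks the threshold: miR-449a lies above it in all samples but wild type 3, miR-34a and miR-34b scatter around it, and miR-449c, miR-449b and miR-34c lie below it.

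Detection of the family thus covered 4 of 7 probes in at least 1 sample and 2 of 7 in at least 4 samples. On the whole panel, 33.4% of probes passed in at least 4 samples, 19.8% passed in all 9 and 52.7% in none. No member passed in all 9 samples, and 3 of 7 passed in none.

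The RNA of mutant 6, wild type 1 and wild type 5 was each run in a second lane with a different background, which shows how far a member's count follows the lane. In mutant 6, miR-34a read 152 counts in the lane with a negative mean of 66.8 and 93 in the lane with 29.4. In wild type 1 the pair was 137 at a background of 67.1 and 103 at 28.1, and in wild type 5 it was 127 at 79.1 and 94 at 44.9. The higher-background lane gave 1.33 to 1.63 times the count in all 3 pairs. With the negative mean subtracted, the pairs for miR-34a were 85.3 and 63.6, 69.9 and 74.9, and 47.9 and 49.1 counts, no longer higher in each. miR-34b-5p followed the lane further, with 95 against 52, 113 against 62 and 115 against 70 counts, ratios of 1.64 to 1.83. Subtracting the negative mean left this probe higher in each higher-background lane, at 28.3 against 22.6, 45.9 against 33.9 and 35.9 against 25.1 counts. miR-34b-3p read 130 against 91, 121 against 78 and 128 against 113 counts.

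miR-449a went the other way, with 804 counts in the higher-background lane of mutant 6 and 949 in the lower, 1062 and 1189 in wild type 1, and 926 and 1260 in wild type 5. On log2 CPM these pairs differed by −0.34, −0.28 and −0.36. Between 50 and 63 of the 189 tested probes differed by at least as much in the same pairs, where the median absolute difference was 0.19 to 0.26. The lane-to-lane difference of miR-449a was thus above that median in each pair and of the same sign, though many tested probes differed as much.

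**Figure D3:**
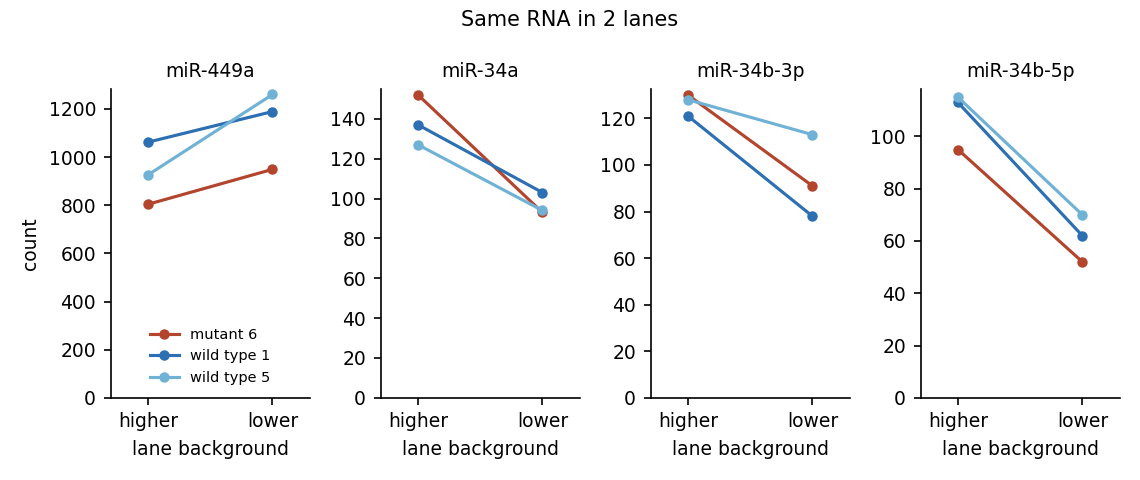
Counts of miR-449a, miR-34a, miR-34b-3p and miR-34b-5p in the higher- and lower-background lane of the same RNA, for mutant 6, wild type 1 and wild type 5, each line joining the 2 lanes of 1 sample. miR-34a and both arms of miR-34b read higher in the higher-background lane in all 3 samples, while miR-449a read lower there.

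Whether the Bim 3′UTR mutation went with a different family level was tested on the 2 members that passed the filter. Levels are CPM, counts scaled by TMM to the summed counts of the tested probes. A prior count of 2 enters log2 CPM only. miR-449a was at 3153, 5179, 296 and 3513 CPM in mutant 6 to mutant 9, and at 4582, 3173, 347, 4234 and 3280 CPM in wild type 1 to wild type 5. The groups overlapped fully, each holding 1 sample far under the rest. The mean was 3035 ± 2028 CPM in mutant lungs (SD, n = 4) and 3123 ± 1665 CPM in wild type lungs (n = 5). The log2 fold change was −0.04 ± 0.78 (SE, 95% interval −1.79 to 1.70), with an adjusted p of 0.997 in the edgeR quasi-likelihood test. Without mutant 8 and wild type 3 the means were 3949 ± 1081 CPM in mutant lungs (n = 3) and 3817 ± 698 CPM in wild type lungs (n = 4). The log2 fold change was then 0.05 ± 0.20 (95% interval −0.40 to 0.50; edgeR adjusted p 0.980). With all 9 samples the interval thus holds changes of over 3-fold either way, and without the 2 samples it still holds changes up to 0.50 on the log2 scale.

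Ordered by CPM, mutant 7 was highest for miR-449a and was followed by wild type 1, wild type 4, mutant 9, wild type 5, wild type 2 and mutant 6. Neighbours in this order differed by less than the 0.28 to 0.36 of log2 CPM by which miR-449a differed between lanes of the same RNA. Mutant 8 at 296 CPM and wild type 3 at 347 CPM came last, and their counting intervals overlapped.

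miR-34a was at 596, 372, 334 and 397 CPM in mutant 6 to mutant 9 and at 397, 465, 431, 307 and 450 CPM in wild type 1 to wild type 5. The ranges overlapped, and the highest value came from the higher-background lane of mutant 6. The mean was 425 ± 117 CPM in mutant lungs and 410 ± 62.9 CPM in wild type lungs (SD, n = 4 and 5). The log2 fold change was 0.05 ± 0.20 (95% interval −0.40 to 0.50; edgeR adjusted p 0.997). Without mutant 8 and wild type 3 it was 0.17 ± 0.23 (−0.34 to 0.67; edgeR adjusted p 0.980). Neither member differed between genotypes beyond the spread between samples. The mean negative control made up 66.8 of the 152 counts of miR-34a in mutant 6 and 79.1 of the 127 in wild type 5. The CPM of miR-34a thus holds background that differs by lane, which may shift its fold change either way. That fold change was 0.23 with the negative mean subtracted and −0.10 with the second lanes of samples 1, 5 and 6.

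**Figure D4:**
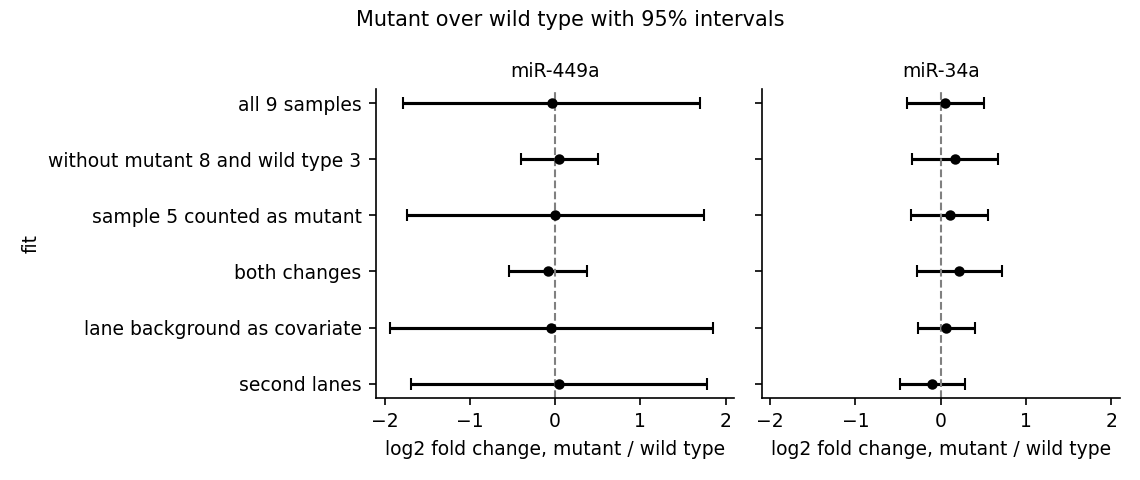
Log2 fold change of miR-449a (left) and miR-34a (right), mutant over wild type, as points with 95% intervals, under 6 choices of samples, labels or lanes. All intervals hold 0, and that of miR-449a narrows from −1.79 to 1.70 with all 9 samples to −0.40 to 0.50 without mutant 8 and wild type 3.

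No tested probe of the panel passed an adjusted p of 0.05 in that comparison: edgeR called 0 of 189 (0%), with 5 at an unadjusted p under 0.05, and DESeq2 called 0 with 9. Without mutant 8 and wild type 3, edgeR also called 0 (0%), with 6 at an unadjusted p under 0.05. The CPM of the 2 genotypes did not overlap for 1 probe, 0.529% of those tested, and that probe was no member. For the members near or under background, the mean log2 CPM differed by 0.04 for miR-34b-3p (exact two-sided permutation p 0.857), −0.22 for miR-34b-5p (p 0.341), −0.26 for miR-449c (p 0.230) and −0.22 for miR-449b (p 0.548), mutant minus wild type. The same exact permutation test gave 0.03 for miR-34a (p 0.905) and −0.20 for miR-449a (p 0.714), and it cannot go below 0.00794 with 4 against 5 samples. These 6 p-values are unadjusted, and none is under 0.05.

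The contrast that did move miR-449a was between mutant 8 and wild type 3 on one side and the other 7 lungs on the other, which crosses the genotypes. It is described without a test, because the samples were singled out by their counts. miR-449a in mutant 8 stood at 9.39% of the lowest CPM among the other 7 lungs, and in wild type 3 at 11.01%. Both samples lay below all 7 others for 38 of the 189 tested probes (20.1%), miR-449a and several epithelial probes among them. miR-429 stood at 13.1% of the lowest other lung in mutant 8 and 5.86% in wild type 3, miR-200c at 14.4% and 9.31%, and miR-200b at 18.8% and 18.6%. In mutant 8 miR-449a was thus lower than these 3 probes on that measure, while in wild type 3 miR-429 and miR-200c were lower than miR-449a. The counts of miR-449a (58) and miR-429 (62) in wild type 3 both lay under the lane threshold of 68.6, so their order there is not resolved. miR-429, miR-200c and miR-200b belong to the miR-200 family of epithelial cells.

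Of the 8 epithelial probes, 7 were lower in both samples than in all others. The exception was miR-205, a miRNA of basal and squamous epithelium, at 199% of the lowest other lung in mutant 8 and 26.2% in wild type 3. In the opposite direction miR-1, of heart and skeletal muscle, was at 59302 CPM in mutant 8 and 54783 CPM in wild type 3, against at most 716 CPM elsewhere. miR-34a was at 109% of the lowest other lung in mutant 8 and 140% in wild type 3, within the range of the other 7. It read close to background in all lungs, and its counts over the negative mean in these 2 samples also lay within the range of the others. In such bulk RNA, fewer cells of a type and less RNA per cell cannot be told apart, and the part of tissue composition in these values was not tested.

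**Figure D5:**
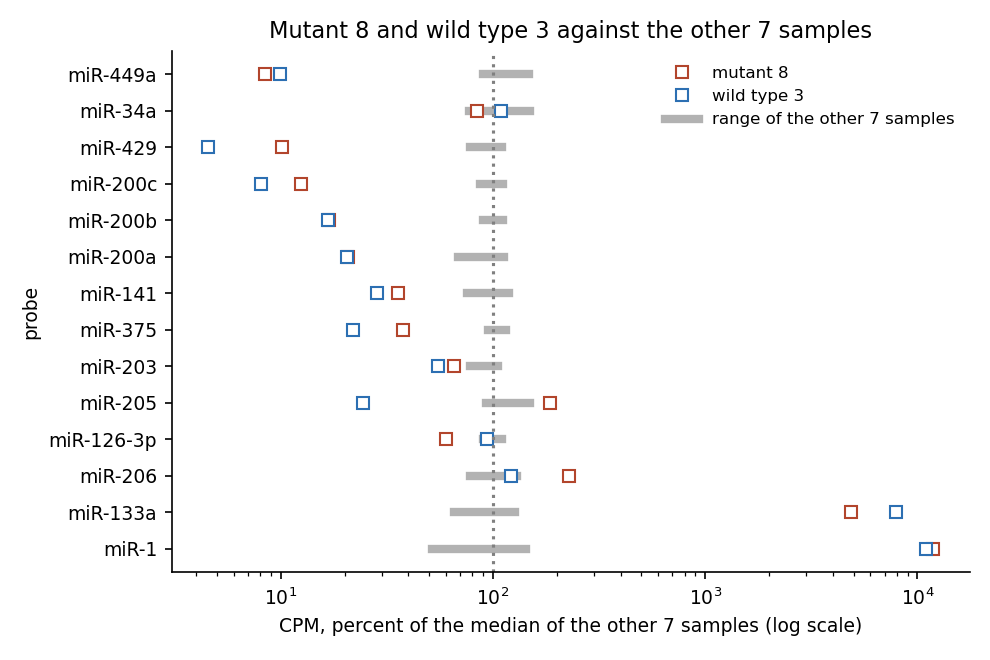
CPM of miR-449a, miR-34a and epithelial, endothelial and muscle miRNAs in mutant 8 and wild type 3 (open squares), as a percent of the median of the other 7 lungs on a log axis, with grey bars for the range of those 7. miR-449a and the miR-200 family lie far left of their bars in both samples, miR-34a lies within its bar, and miR-1 and miR-133a lie far right.

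The probes whose pattern was most like a member were taken as those with the smallest root mean square difference of log2 CPM, each probe centred on its own mean. Over all 9 samples the 5 most like miR-449a were miR-200c (0.30), miR-429 (0.37), miR-10a (0.37), miR-200b (0.47) and miR-183 (0.59), against a median of 1.52 over the tested probes. These distances rest largely on mutant 8 and wild type 3. Over the other 7 samples the 5 nearest were miR-183 (0.12), miR-199a-5p, miR-487b, miR-125b-5p and miR-376a, with a median of 0.32 over the tested probes, and of the earlier 5 miR-183 alone was among them. For miR-34a the 5 nearest over 9 samples were miR-431 (0.15), miR-381, miR-345-5p, miR-1966 and miR-181c (0.18), against a median of 0.38. They averaged 393 to 981 CPM, against 417 CPM for miR-34a itself. Over the other 7 samples the nearest were miR-431 (0.11), miR-574-3p (0.12), miR-335-3p, miR-381 and miR-541 (0.18), so that miR-431 and miR-381 were in both sets. All these values share lanes and depth, and are given as a description.

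The miRNAs that p53 is known to induce or help to mature were on the panel with 12 probes, 4 of them members of the family, and 7 of the 12 were tested, miR-34a among them. In the mutant lungs 5 of the 7 read higher and 2 lower, and none passed the test. Their median log2 fold change was 0.07, against −0.03 over all 189 tested probes. Of these 189, 76 read higher and 113 lower, a split that moved with the scaling. Without mutant 8 and wild type 3 that split was 88 and 101. The median of the 7 was then 0.15, against −0.02, with 5 higher, 2 lower and none passing. The 3 with the highest counts were miR-16 at 0.20 ± 0.12 (SE), miR-145 at 0.13 ± 0.16 and miR-15a at −0.04 ± 0.25. Of the epithelial probes, 3 of 8 read higher and 5 lower in the mutant lungs, none passed, and their median was −0.03. Without mutant 8 and wild type 3, 4 read higher and 4 lower, none passed, and the median was 0.0010. The most abundant were miR-200c at −0.15 ± 0.72, miR-200b at −0.10 ± 0.60 and miR-429 at 0.03 ± 0.81. Without the 2 samples these were −0.09 ± 0.13, −0.03 ± 0.13 and 0.09 ± 0.17, so their errors narrowed as that of miR-449a did. Of the 6 probes for miRNAs of multiciliated cells, miR-449a was the only one tested. That list thus rests on 1 probe, and no cell type was read in this bulk RNA.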

How the data were processed

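Lung RNA was isolated with a miRNA kit and run on the nCounter system, per the labels' protocols. The authors deposited raw counts per probe for 9 samples (626 probes). A second deposited table holds the same counts and other lane values for 12 lanes, since samples 1, 5 and 6 were run again. All 5634 values equalled the first lanes, which were used, and repeat lanes count as 1 replicate. A background or normalization step by the authors is not given in the sources used here.

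From these counts, mouse probes were tested (189 of 566) if they exceeded, in at least 4 samples, a lane threshold 2 SD over the average of the 8 negative controls. edgeR 4.0.16 (R 4.3.3; TMM, quasi-likelihood, no covariate) compared 4 mutant with 5 wild type samples, with Benjamini-Hochberg adjustment over the 189 probes at 0.05. The standard error is the size of the log2 fold change over the square root of F. Single probes were also compared by exact two-sided permutation tests on log2 CPM. DESeq2 1.42.0, voom in limma 3.58.1 and other scalings, filters, thresholds, lanes and sample sets were alternatives. No genome build entered the counts. Depth per sample was 206964 to 289227 counts. Poisson intervals on single counts cover counting error only, while intervals of fold changes come from the fit and include the spread between samples.

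The members and the lists of epithelial, muscle, p53-responsive and multiciliated-cell miRNAs were chosen with earlier results of these data known. Named are every member probe, the 5 tested probes most like each tested member, up to 3 probes of highest mean count per list and any that passed the test. miR-155, miR-1, miR-205 and the probes set beside miR-449a in mutant 8 and wild type 3 were named after their values were seen. Figures were made with Python 3.11.15, pandas 2.3.3 and matplotlib 3.10.9.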

Additional observations from a re-analysis of the deposited data

Results flagged for a closer look

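In all, 3 values of the family stood far from the rest of their genotype by Dixon's test at the 95% level, among 12 groups examined, where chance marks about 1 group in 20. miR-449a in wild type 3 was at 8.47 log2 CPM, below the other 4 wild type lungs. Wild type 3 had already been singled out by its counts, so this mark is no separate evidence. In mutant 8 the same probe was also far below the other 3 mutant lungs, but the gap stayed just under the limit for 4 samples. miR-449b in wild type 3 was at 6.93 log2 CPM, above the other wild type lungs. miR-449c in wild type 2 was at 7.14 log2 CPM, above the others. The values of miR-449b and miR-449c rest on 19 and 34 counts, below the background threshold of their lanes, and wild type 2 was read from a higher-background lane. Wild type 3 had the smallest library after TMM scaling, 167078 counts, which raises its CPM for a given count. The part of background and library size in these values was not tested.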

How the results depend on the processing

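No probe was called, by edgeR or any other tool, in any of the 24 alternatives, with 2 to 10 probes at an unadjusted p under 0.05, and neither tested member came near the threshold (smallest adjusted p 0.888). The filter on all 9 samples left out both tested members, so it gave no value for them. Signs close to 0 turned. The log2 fold change of miR-34a became −0.10 with the second lanes, 0.23 with the negative mean subtracted and 0.21 with housekeeping mRNA scaling, and ran from −0.16 to 0.15 as each sample was left out. That of miR-449a became 0.13 with housekeeping mRNA scaling, which moved the median of all tested probes to 0.11 (71.4% read higher, against 40.2% with TMM, 50.3% with DESeq2, 57.7% with total counts and 66.1% with positive controls), 0.050 without mutant 8 and wild type 3, and 0.044 with the second lanes. It ran from −0.43 to 0.34 as each sample was left out, with −0.33 without wild type 3 and 0.34 without mutant 8. With sample 5 counted as mutant the log2 fold change was −0.00046 for miR-449a and 0.10 for miR-34a. With mutant 8 and wild type 3 left out as well, a choice made after seeing the data, these were −0.08 ± 0.21 and 0.22 ± 0.22. On log2 CPM, the difference of miR-34a was −0.076 and of miR-34b-3p −0.11 with the second lanes, and that of miR-34b-5p −0.31 (exact p 0.0476, over a range of 0.0476 to 0.849) with the negative mean subtracted and 0.11 with both sample changes. That of miR-449a was 0.033 without mutant 8 and wild type 3 and 0.056 with sample 5 as mutant, which gave 0.09 for miR-34a, 0.20 for miR-34b-3p, −0.035 for miR-34b-5p, −0.27 for miR-449c and −0.23 for miR-449b. Leaving out each sample gave −0.14 to 0.13 for miR-34a, −0.12 to 0.13 for miR-34b-3p, −0.88 to 0.71 for miR-449a, −0.39 to 0.02 for miR-449b (0.020 without wild type 3) and −0.38 to −0.13 for miR-449c. The number of samples above background depended on the threshold. At 3 SD it was 7 for miR-449a, 2 for miR-34a, 2 for miR-34b-3p and 0 for miR-34b-5p. Against the highest negative control it was 4 for both arms of miR-34b, and against the negative mean 9 for each of these 4 probes. With the second lanes it was 4 for miR-34b-3p and 0 for miR-34b-5p. miR-449b, miR-449c and miR-34c passed in no sample under any of these. No paired analysis was possible because the genotypes share no replicate numbers. Lane background limits miR-34a and both arms of miR-34b, and miR-449a in mutant 8 and wild type 3. miR-449b and miR-449c lay under the threshold in every lane, and miR-34c held a fixed value of 1. Causes of these shifts were not tested.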
